A study of Mus musculus with 116 samples.

Results

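The 10 Igkv8 segments described here are variable (V) gene segments of the mouse immunoglobulin kappa light chain locus (Igk) on chromosome 6. They were chosen by name, as Igkv8-16, Igkv8-18, Igkv8-19, Igkv8-21, Igkv8-23-1, Igkv8-24, Igkv8-26, Igkv8-27, Igkv8-28 and Igkv8-30, out of 162 annotated Igkv segments. A junction was counted for a segment when its position lay within 100 bp of the segment's coordinates in GRCm38, the assembly also called mm10. The rule named the rise of some members without Ku70 beforehand, so every comparison of Ku70-/- with wild-type cells is given as a description, without a test. In all, 155361 of 1374899 junction rows (11.3%) lay at a member. RefSeq lists 13 Igkv8 names, of which 3 are not members.

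Light chain genes are assembled by V(D)J recombination, in which the RAG recombinase cuts between a segment's coding sequence and its recombination signal sequence (RSS), a heptamer and a nonamer held apart by a spacer. Each cut leaves a hairpinned coding end and a blunt signal end, and a V coding end is normally joined to a J coding end by classical non-homologous end joining. Ku70, with Ku80, binds the broken ends, and ligase IV (Lig4) seals them. A join of a coding end to the signal end of the other segment is known as a hybrid join.

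The 42 libraries came from v-Abl pro-B lines, that is, B-cell precursors transformed by a viral kinase, all carrying an Emu-Bcl2 transgene and held in G1 with 3 µM of the kinase inhibitor STI-571 for 96 h, a state in which RAG is active. Each library was primed at the Jk1 coding end (the bait) and read into the joined sequence (the prey) by LAM-HTGTS, a linear-amplification method, with 3 libraries in each of 14 groups. Lineages are named by the clone letter. The groups were WT A and WT B, the Ku70-/- clones A1 and B1, the Lig4-/- clones A1 (2 sets), B1 and C, Lig4-/- clones A1 and C with Lig4 added back (+Lig4), the Lig4-/-Ku70-/- clones A1_1 and C1, and the same double-knockout clones with Ku70 added back (+Ku70). A knockout group is 1 clone, and the labels name no separate cultures for replicates, so p-values measure the spread between libraries, which may be technical. The cells' identity was not checked against marker genes, since these libraries carry no expression.

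Depth fell with genotype. A library held 291174 to 305846 rows in WT B, 47130 to 53074 in WT A, 50218 to 60811 in Ku70-/- B1 and 3075 to 6383 in Ku70-/- A1. The double-knockout libraries held 1867 to 7225 rows, the +Lig4 libraries 10577 to 35059, and the Lig4-/- libraries 3 to 74. Shares below are percent of all rows of a library. A row is a read, several rows can carry the same junction, and intervals cover counting error only.

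The RSS of a segment decides where RAG cuts, so the end of each member is shown first, as the consensus of the deposited prey reads, 5′ to 3′ on the segment's coding strand. Each line has 21 bases of coding end in lower case, then the heptamer in capitals, a spacer of 12 bases, and the nonamer in capitals. Igkv8-26 is left out because too few reads covered its flank.
Igkv8-16, chr6:70386644-70386692, minus strand: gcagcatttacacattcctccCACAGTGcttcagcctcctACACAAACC
Igkv8-18, chr6:70356425-70356473, plus strand: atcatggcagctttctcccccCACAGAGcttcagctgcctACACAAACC
Igkv8-19, chr6:70340848-70340896, minus strand: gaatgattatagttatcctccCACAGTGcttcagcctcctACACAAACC
Igkv8-21, chr6:70314867-70314915, minus strand: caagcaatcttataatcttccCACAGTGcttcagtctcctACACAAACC
Igkv8-23-1, chr6:70240399-70240447, minus strand: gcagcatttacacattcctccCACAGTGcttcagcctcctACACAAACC
Igkv8-24, chr6:70216830-70216878, minus strand: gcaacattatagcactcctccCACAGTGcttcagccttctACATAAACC
Igkv8-27, chr6:70171781-70171829, minus strand: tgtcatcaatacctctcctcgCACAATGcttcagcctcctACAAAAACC
Igkv8-28, chr6:70143565-70143613, minus strand: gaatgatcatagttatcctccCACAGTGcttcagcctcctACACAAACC
Igkv8-30, chr6:70117033-70117081, minus strand: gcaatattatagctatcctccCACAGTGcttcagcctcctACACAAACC
These ends were much alike. Of the 9 segments shown, 7 carried the heptamer CACAGTG, Igkv8-18 had CACAGAG and Igkv8-27 had CACAATG. The nonamer was ACACAAACC in 7 of them, ACATAAACC in Igkv8-24 and ACAAAAACC in Igkv8-27. Of the members, 8 lie on the minus strand and join Jk1 by inversion, and Igkv8-18 and Igkv8-26 lie on the plus strand and join by deletion. They sit 336 kb (Igkv8-16) to 606 kb (Igkv8-30) from Jk1. The Jk1 end to which they are joined is shown from its coding end inward, and the capitals mark the 16 bases that were missing from a recurrent join described further on.
Jk1, chr6:70722562-70722599, plus strand: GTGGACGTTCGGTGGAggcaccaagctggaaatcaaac

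Igkv8-16 and Igkv8-23-1, the members that the rise concerns most, were nearly the same sequence. Their last 75 coding bases differed at 1 position, 70 bases from the coding end. The bases are shown with the difference in capitals on the second line.
Igkv8-16, chr6:70386672-70386746: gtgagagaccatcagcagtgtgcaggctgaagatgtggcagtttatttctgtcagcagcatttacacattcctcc
Igkv8-23-1, chr6:70240427-70240501: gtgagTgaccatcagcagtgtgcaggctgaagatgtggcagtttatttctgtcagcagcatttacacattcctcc
On the other side, starting just beyond the nonamer, the flanks differed at 3 of 72 positions, the nearest 63 bases beyond the coding end. Differing bases are in capitals.
Igkv8-16, chr6:70386572-70386643: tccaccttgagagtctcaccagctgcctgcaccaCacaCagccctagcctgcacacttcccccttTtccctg
Igkv8-23-1, chr6:70240327-70240398: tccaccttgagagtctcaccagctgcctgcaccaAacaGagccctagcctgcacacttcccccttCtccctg
Over the first 100 coding bases the identity of this pair was 99.0%, and over the first 100 flanking bases 97.0%. Igkv8-19 and Igkv8-28 were alike to 97.0% in the coding part and to 100.0% in the flank. Reads that end inside such a stretch fit both segments of a pair. The lengths of the rows in the lists are given next, and whether such double fits shaped them was not tested. In WT B, the coding-orientation rows of Igkv8-16 and Igkv8-23-1 had a median prey alignment of 318 bp, and 17 of 6999 rows (0.243%) were shorter than 150 bp. In the same libraries the 8 other members had a median of 149 bp, with 50.1% of rows shorter than 150 bp. In Ku70-/- B1 the medians were 313 bp and 167 bp. For joins that run the other way, out over the RSS, the lengths were closer: in Ku70-/- B1 the pair's median was 159.5 bp, with 47.2% of rows under 150 bp, against 130 bp and 59.0% for the 8 others. Short coding-orientation reads of the pair were thus scarce in the lists, and short opposite-orientation reads were not. How the lists were filtered on ambiguous alignments is not given in the sources used here.

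**Figure D1:**
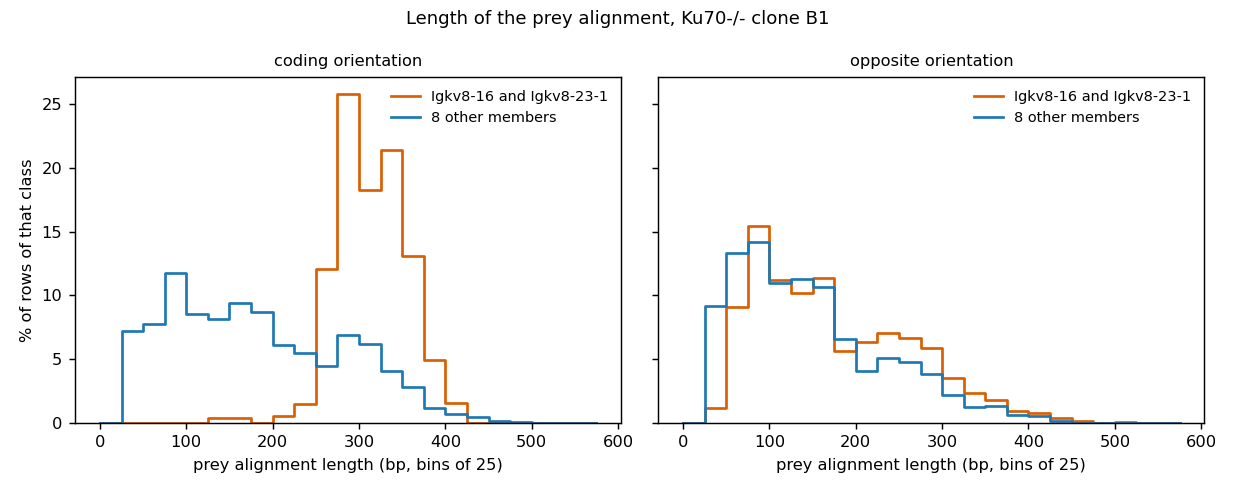
Percent of rows (y axis) by length of the prey alignment in bins of 25 bp (x axis) in the 3 Ku70-/- B1 libraries, for Igkv8-16 with Igkv8-23-1 (orange) and the 8 other members (blue), separately for the coding and the opposite orientation. Coding-orientation rows of the pair have a median of 313 bp against 167 bp for the other members, and opposite-orientation rows have medians of 159.5 bp and 130 bp.

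In wild-type cells the members differed widely in use. In WT B, Igkv8-24 held 3.48% ± 0.0925 of rows (SD, n = 3), Igkv8-21 held 2.52% ± 0.0527, Igkv8-27 held 2.50% ± 0.0124 and Igkv8-30 held 1.33% ± 0.0155. Igkv8-19 (0.607%), Igkv8-16 (0.588%) and Igkv8-28 (0.570%) followed with overlapping libraries, then Igkv8-23-1 (0.206%), Igkv8-18 (0.123%) and Igkv8-26 (0.0289%). Igkv8-21 and Igkv8-27 also overlapped. The places of Igkv8-16 and Igkv8-23-1 in this order depend on the scarcity of their short coding-orientation rows. With prey alignments of at least 250 bp, a cut chosen after the lengths were seen, Igkv8-16 held 2.60% in WT B. Igkv8-24 then held 2.92%, Igkv8-21 2.62%, Igkv8-27 1.73% and Igkv8-30 1.04%. Igkv8-23-1 held 0.902%, Igkv8-28 0.595% and Igkv8-19 0.583%. In WT A the order began with Igkv8-30 (2.68% ± 0.241) and Igkv8-21 (2.65% ± 0.212), which overlapped, and Igkv8-24 held 1.11% ± 0.365. The family as a whole held 9.01% ± 0.204 of rows in WT A and 11.9% ± 0.213 in WT B.

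Without Ku70 the family's total share moved little while its members moved apart. The total was 10.4% ± 1.30 in Ku70-/- A1 and 11.3% ± 0.0805 in Ku70-/- B1, a log2 difference from WT of 0.20 in A (0.33 within sequencing runs) and -0.08 in B (-0.08 within runs). Among members, Igkv8-16 and Igkv8-23-1 were higher in both lineages. The Igkv8-16 share in the WT A libraries was 0.354%, 0.0998% and 0.260%, and in the Ku70-/- A1 libraries 1.89%, 0.793% and 1.17%. In lineage B it was 0.535%, 0.597% and 0.632% in WT and 1.38%, 1.45% and 1.48% in Ku70-/-. WT and Ku70-/- libraries stood apart in both lineages, and the log2 differences were 2.53 in A and 1.29 in B. Igkv8-23-1 held 0.216%, 0.0845% and 0.220% in WT A and 0.813%, 0.669% and 0.705% in Ku70-/- A1. In lineage B it held 0.180%, 0.215% and 0.223% in WT and 0.657%, 0.627% and 0.612% in Ku70-/-. Again no Ku70-/- library fell within the WT range, and the means differed by log2 differences of 2.20 and 1.62.

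Igkv8-24 went the other way. Its libraries held 1.50%, 0.778% and 1.04% in WT A and 0.228%, 0.123% and 0.423% in Ku70-/- A1, a log2 difference of -2.15. In lineage B the share was 3.40%, 3.58% and 3.46% in WT and 2.04%, 2.22% and 2.23% in Ku70-/-, a log2 difference of -0.69. Of the 10 members, Igkv8-16 and Igkv8-23-1 were higher without overlap in both lineages and Igkv8-24 was lower. Among all 109 segments with enough rows the same held for 9.17% (higher) and 11.9% (lower). The median log2 difference was -0.08 over the members and -0.07 over all 109 segments. Igkv8-30 was higher without overlap in lineage B alone (log2 difference 0.51, against 0.30 with overlap in A). Igkv8-19, Igkv8-27 and Igkv8-28 were lower without overlap in B alone (-0.87, -0.27 and -1.44), and Igkv8-26 was higher without overlap in A alone, on 6 rows in the 3 Ku70-/- A1 libraries. Igkv8-18 and Igkv8-21 overlapped in both lineages. These statements count every row. With each distinct junction counted once, Igkv8-21 and Igkv8-30 were also higher without overlap in both lineages. Igkv8-21 held 1.77% (WT) and 2.42% (Ku70-/-) in A, and 1.85% and 2.14% in B. Igkv8-30 held 1.91% and 3.37% in A, and 1.54% and 1.92% in B. Igkv8-18 and Igkv8-28 were then lower without overlap in both lineages. In B, Igkv8-27 turned to higher without overlap (1.56% and 1.99%). Igkv8-26 then overlapped in A and was lower in B. Such values for Igkv8-16 and Igkv8-24 are given further on.

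**Figure D2:**
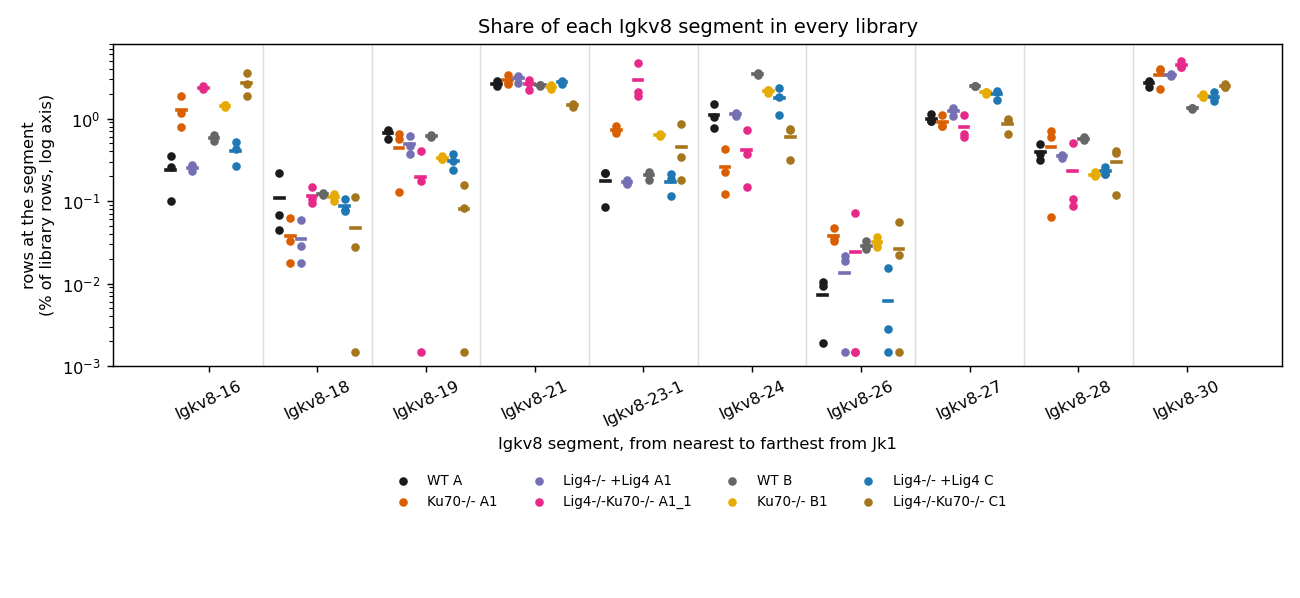
Share of library rows (y axis, percent, log axis) of each member (x axis) in the 24 libraries of the 8 deeper groups; points are libraries, short bars are means of 3, and a share of 0 is drawn at 0.0015%. Igkv8-16 and Igkv8-23-1 stand higher in both Ku70-/- clones than in WT, and Igkv8-24 stands lower.

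The gain of Igkv8-16 and Igkv8-23-1 lay in the joins of the opposite orientation, that is, rows in which the prey runs from the signal side of the segment out over the RSS. In WT such rows were rare: 21 of 13716 family rows in WT A and 339 of 106372 in WT B. In Ku70-/- cells they made up 54.2%, 35.6% and 42.1% of family rows in the A1 libraries and 37.6%, 36.9% and 38.2% in the B1 libraries. Igkv8-16 rows of the coding orientation held 0.581% of rows in WT B and 0.618% in Ku70-/- B1, and 0.238% and 0.274% in lineage A. Its opposite-orientation rows went from 0.00701% to 0.817% in lineage B and from 0 of 357 rows to 1.01% of rows in lineage A. Igkv8-23-1 behaved alike, with 0.204% (WT) and 0.215% (Ku70-/-) of rows in the coding orientation in lineage B, and 0.00170% and 0.417% in the opposite one. The 8 other members in sum held 11.1% (WT) and 6.21% (Ku70-/-) of rows in the coding orientation in lineage B, and 0.0295% and 3.01% in the opposite one.

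Shares of a library hide that joining itself dropped. Per 100000 raw reads, coding-orientation joins to the family numbered 5891 ± 232 in WT B and 669.5 ± 71.5 in Ku70-/- B1 (SD, n = 3), and opposite-orientation joins 18.8 ± 1.88 and 403 ± 42.7. In lineage A the coding joins numbered 2731 ± 134 and 189 ± 98.5, and opposite joins 4.19 ± 3.74 and 135 ± 46.4. For Igkv8-16 plus Igkv8-23-1 in lineage B, coding joins were 389 ± 46.1 and 79.5 ± 14.1, and opposite joins 4.28 ± 1.50 and 117 ± 9.13. In lineage A these were 122 ± 56.3 and 11.6 ± 1.92 (coding), and 1.60 ± 2.26 and 45.5 ± 10.9 (opposite). On this scale coding joins to the pair were fewer without Ku70 and opposite joins more frequent, with no overlap between libraries.

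**Figure D3:**
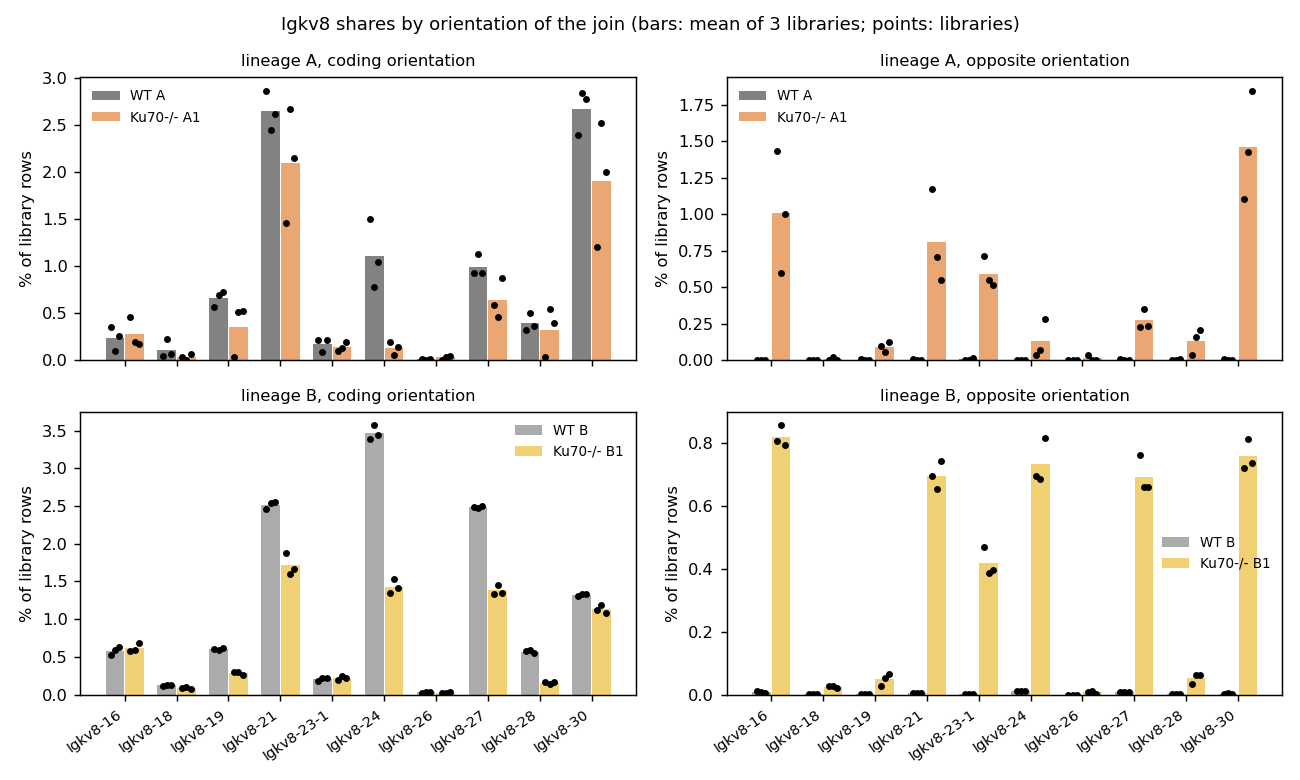
Percent of library rows (y axes) at each member (x axes) in the coding orientation (left) and the opposite orientation (right), for WT and Ku70-/- libraries of lineage A (top) and B (bottom); bars are means and points the 3 libraries. In lineage B the coding bars of Igkv8-16 are near equal (0.581% and 0.618%), and the opposite bars differ (0.00701% and 0.817%).

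The share of a member's rows in the opposite orientation varied from 14.8% (Igkv8-19) to 65.7% (Igkv8-23-1) in Ku70-/- B1, among the 9 members with at least 100 rows. Igkv8-16 stood at 56.9%, Igkv8-30 at 40.1%, Igkv8-24 at 33.8%, Igkv8-27 at 33.2% and Igkv8-21 at 29.0%. Igkv8-16 and Igkv8-23-1 were the highest of all 95 segments with that many rows, whose non-members had a median of 30.4% and a highest value of 50.5%. Igkv8-18 (22.6%) and Igkv8-28 (25.3%) were also low. Igkv8-19 and Igkv8-28, alike over the whole first 100 bases of flank, had long opposite-orientation alignments in Ku70-/- B1, with medians of 244.5 bp and 238 bp, and coding-orientation medians of 177 bp and 182 bp. The length gap of Igkv8-16 and Igkv8-23-1 lay in the coding orientation, and that of Igkv8-19 and Igkv8-28 in the opposite one. With prey alignments of at least 250 bp in Ku70-/- B1, a cut chosen after the lengths were seen, the opposite share was 23.3% at Igkv8-16 and 30.6% at Igkv8-23-1. Igkv8-28 (35.2%) then stood above both, and the other Igkv segments had a library mean of 23.3%. What part these lengths have in the shares was not tested.

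When only rows with a prey alignment of at least 250 bp were kept, a choice made after the lengths were seen, the difference was much smaller or, for Igkv8-23-1 in lineage A, turned round. Igkv8-16 then held 2.60% ± 0.0360 of rows in WT B and 2.94% ± 0.240 in Ku70-/- B1, and 1.48% ± 0.239 and 1.66% ± 0.515 in lineage A. Igkv8-23-1 held 0.902% ± 0.0398 and 1.12% ± 0.114 in lineage B, and 1.13% ± 0.350 and 0.766% ± 0.395 in lineage A (the Ku70-/- A1 libraries held 34 such rows at Igkv8-16 and 17 at Igkv8-23-1). The lineage B libraries still did not overlap, and those of lineage A did. Igkv8-24 remained lower, at 2.92% ± 0.0993 against 1.59% ± 0.178 in lineage B. Counting each distinct junction once, Igkv8-16 held 0.919% ± 0.0184 in WT B and 1.58% ± 0.0720 in Ku70-/- B1, and Igkv8-24 held 1.93% ± 0.00977 and 1.88% ± 0.121, now with overlap. In lineage A the distinct-junction share was 0.499% ± 0.171 and 1.35% ± 0.117 for Igkv8-16, and 1.07% ± 0.188 and 0.304% ± 0.147 for Igkv8-24, without overlap.

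Family joins in Ku70-/- cells started farther from the ends. In WT B the median distance of a coding-orientation junction from the annotated coding end was 1 to 3 bp for every member, and in Ku70-/- B1 it was 8 bp (Igkv8-18) to 17 bp (Igkv8-16, Igkv8-23-1 and Igkv8-30). The share of coding-orientation family rows lying more than 10 bp in went from 2.75% to 62.5%. The loss on the Jk1 side had a median of 1 bp and 15 bp. Rows with unaligned bases between bait and prey, which hold added nucleotides, went from 41.5% to 2.37%. Microhomology, an overlap of at least 2 bp between the bait and prey alignments on the read, was found in 0.309% and 13.7% of coding-orientation rows, and by member it ranged from 0 to 0.593% in WT B and from 10.2% (Igkv8-18) to 18.1% (Igkv8-23-1) in Ku70-/- B1. In opposite-orientation rows of Ku70-/- B1 the median distance was 11 bp, and 21.8% had microhomology. The few opposite-orientation rows of WT B (339) had a median distance of 1 bp, and 42.2% had microhomology, more than in Ku70-/- B1. In Ku70-/- B1 the bases matched both sequences in 94.6% of the coding-orientation overlaps and 81.4% of the opposite ones. In WT B they did so in 86.6% and 50.3%.

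**Figure D4:**
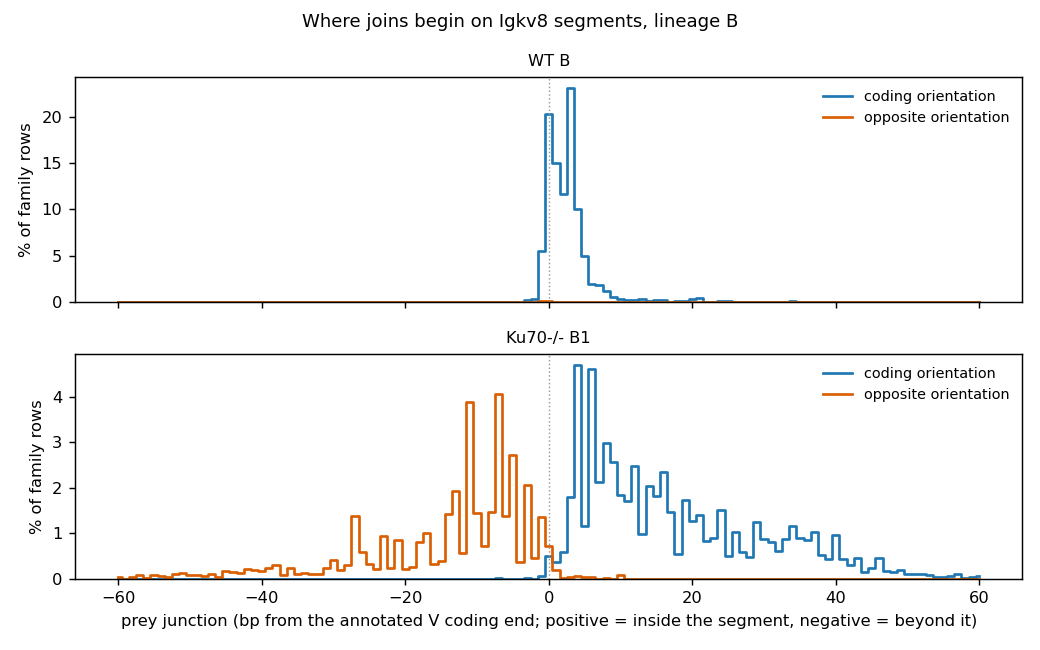
Percent of family rows (y axes) by position of the prey junction in bp from the annotated V coding end (x axis; positive inside the segment, negative beyond it) in WT B (top) and Ku70-/- B1 (bottom), blue for the coding and orange for the opposite orientation. WT joins lie within a few bp of the end, and Ku70-/- joins spread over both sides, with a median of 15 bp in the coding orientation and 11 bp in the opposite one.

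Frequent joins of a few members show these differences in sequence. Each line gives 20 bases of the read on each side of the junction, with overlapping bases between them in capitals. Jk1 comes first, on the strand opposite to the one shown above.
Igkv8-21 in WT B, coding orientation: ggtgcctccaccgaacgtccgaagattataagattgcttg
Igkv8-21 in Ku70-/- B1, coding orientation: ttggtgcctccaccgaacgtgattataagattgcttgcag
Igkv8-16 in Ku70-/- B1, opposite orientation: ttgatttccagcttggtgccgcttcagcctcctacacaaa
Igkv8-24 in Ku70-/- B1, opposite orientation: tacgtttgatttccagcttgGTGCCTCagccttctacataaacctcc
Igkv8-30 in Ku70-/- B1, opposite orientation: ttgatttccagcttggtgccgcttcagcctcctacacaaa
The WT B join of Igkv8-21 lost 1 base of V and 2 of Jk1, and held 2300 of 22413 coding-orientation rows (10.3%). The Ku70-/- B1 join of the same segment lost 4 bases on each side (94 of 2920 rows). The opposite-orientation joins of Igkv8-16 (31 of 1398 rows) and Igkv8-30 (28 of 1296 rows) were the same 40 bases: Jk1 had lost the 16 bases shown in capitals above, and the prey started at the seventh base beyond the coding end, the last base of the heptamer. That pair of positions was seen at 7 members, in 137 of 7253 opposite-orientation rows (1.89%). At Igkv8-24 the most frequent opposite join (49 of 1254 rows) had an overlap of 7 bp, GTGCCTC, in which the bases did not match both sequences in any of the rows. All 5 joins shown were found in each of the 3 libraries of their group.

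The double-knockout clones offer libraries made separately from the Ku70-/- ones. Their values may also have been in view when the members were put forward, and none was sequenced in a run with +Lig4 libraries. In that comparison the run cannot be told apart from the genotype, which itself differs in both genes. Igkv8-16 held 2.46%, 2.25% and 2.32% of rows in Lig4-/-Ku70-/- A1_1 and 0.230%, 0.265% and 0.270% in Lig4-/- +Lig4 A1. In lineage C it held 1.86%, 3.56% and 2.59% in the double knockout and 0.519%, 0.263% and 0.426% with Lig4. Igkv8-23-1 held 4.71%, 1.90% and 2.13% against 0.159%, 0.180% and 0.168% in lineage A, and 0.853%, 0.340% and 0.180% against 0.214%, 0.115% and 0.184% in lineage C, where the libraries overlapped.

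In limma's test across 109 segments, with Benjamini-Hochberg adjustment, 4 of the 10 members were higher in the double knockouts than in the +Lig4 cells and 4 were lower, against 16.5% and 43.1% of all segments tested. Of the 4 higher, Igkv8-26 is not read as a rise, for the reason given with its value. Igkv8-16 rose by a log2 difference of 2.96 (SE 0.25, limma adjusted p = 1.25e-09) and Igkv8-23-1 by 2.58 (SE 0.32, limma adjusted p = 3.52e-07). Igkv8-30 (0.42) and Igkv8-26 (1.71) also passed. Igkv8-26 had 3 and 5 rows in the double-knockout groups and 5 and 5 in the +Lig4 groups, with libraries at 0 in all 4 groups. With 0.5 rows added, a library at 0 gets a higher log2 share the fewer rows it holds, and the double-knockout libraries were the smaller ones. Its call was also lost in 5 fits that left out 1 library. Lower were Igkv8-19 (-2.24), Igkv8-24 (-1.61), Igkv8-27 (-0.93) and Igkv8-21 (-0.57). Igkv8-18 (0.24) and Igkv8-28 (-0.32) did not pass. The members' median was -0.04 and that of all segments -0.36. With coding-orientation rows alone the differences of Igkv8-16 (0.46, limma adjusted p = 0.297) and Igkv8-23-1 (0.49, limma adjusted p = 0.188) no longer passed, and Igkv8-30 turned to -0.64 (limma adjusted p = 0.000389). With prey alignments of at least 250 bp Igkv8-16 differed by 0.66 (limma adjusted p = 0.0481) and Igkv8-23-1 by 0.71 (limma adjusted p = 0.0945). In that setting Igkv8-30 (0.06, limma adjusted p = 0.887) and Igkv8-19 (-0.72, limma adjusted p = 0.306) did not pass either, Igkv8-18 did (1.67, limma adjusted p = 0.0138), and Igkv8-26 had too few rows to be tested.

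The family's total did not differ by this test of 12 libraries: the log2 difference was 0.19 (exact permutation p = 0.115, adjusted p = 0.207 over 9 contrasts), with 0.47 in lineage A and -0.09 in lineage C. Without Igkv8-16 and Igkv8-23-1 the total of the 8 other members was lower in the double knockouts, by -0.37 (exact permutation, adjusted p = 0.015). Microhomology was found in 19.0% of family rows in the double knockouts and in 1.51% with Lig4, a difference of 17.5 percentage points, without overlap in either lineage (exact permutation p = 0.005, the smallest the design can give, adjusted p = 0.0225). With prey alignments of at least 250 bp it was 18.0 points (exact permutation, adjusted p = 0.09). These values pool both orientations. With coding-orientation rows alone the microhomology difference was 12.02 points (exact permutation, adjusted p = 0.0225). Among opposite-orientation rows microhomology was 25.12% in Lig4-/-Ku70-/- A1_1 and 20.12% in C1. It was higher there with Lig4, at 29.09% of 165 rows in A1 and 34.04% of 47 rows in C, which was not tested. The median distance of the junction from the coding end was 9.58 bp longer, also without overlap (exact permutation p = 0.005, adjusted p = 0.0225). The share of opposite-orientation rows was 75.7%, 62.8% and 58.9% in Lig4-/-Ku70-/- A1_1, 55.4%, 59.0% and 45.0% in C1, 2.89%, 4.71% and 5.87% in +Lig4 A1 and 0.571%, 0.689% and 0.600% in +Lig4 C. That difference was 56.9 points (exact permutation p = 0.005, adjusted p = 0.035 over 7 comparisons chosen after the orientations were seen), and 21.3 points with prey alignments of at least 250 bp (exact permutation, adjusted p = 0.035).

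Double-knockout and Ku70-/- cells were compared in lineage A, where 3 libraries against 3 allow no exact p below 0.1. The arms are different clones, so the clone cannot be told apart from the lack of Lig4. The family's total was 14.1% ± 1.91 in Lig4-/-Ku70-/- A1_1 and 10.4% ± 1.30 in Ku70-/- A1, a log2 difference of 0.43 without overlap (exact permutation p = 0.1). In limma's test 3 members passed as higher, Igkv8-23-1 (log2 difference 1.87, SE 0.45, limma adjusted p = 0.00267), Igkv8-16 (0.95, SE 0.35, limma adjusted p = 0.0386) and Igkv8-30 (0.44, SE 0.16, limma adjusted p = 0.0292), against 16.5% of all segments. None was lower in limma's test, and 0 at an unadjusted p under 0.05, against 15.6% of all segments. None of the 3 passed with coding-orientation rows alone. With prey alignments of at least 250 bp Igkv8-23-1 passed (1.80, limma adjusted p = 0.0085) and Igkv8-16 (0.21, limma adjusted p = 0.71) and Igkv8-30 (0.93, limma adjusted p = 0.121) did not. Without limma's trend both of these also missed the threshold (adjusted p = 0.0649). Leaving out any 1 library other than Ku70-/- A1 replicate 1 ended the call of Igkv8-16 among the 6 of this contrast (limma adjusted p up to 0.197), and leaving out Ku70-/- A1 replicate 1 or Lig4-/-Ku70-/- A1_1 replicate 1 ended that of Igkv8-30. Opposite-orientation rows held 65.8% ± 8.76 of family rows in the double knockout and 44.0% ± 9.44 in Ku70-/- A1 (exact permutation p = 0.1). Microhomology (21.7% and 15.6%; exact permutation p = 0.3) and the median distance (13 bp and 14.7 bp; exact permutation p = 0.2) overlapped.

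Compared with the other Igkv segments of the same libraries, the family had more opposite-orientation rows without Ku70. The same held, at far lower shares, in the +Lig4 cells, which have Ku70. The family's share was higher in 6 of 6 Ku70-/- libraries, by 11.9 points (40.8% against 28.9%), which is given without a test because the members were put forward for their rise in these libraries. It was also higher in 6 of 6 double-knockout libraries, by 29.5 points (to 59.5%), with an exact sign-flip permutation p of 0.03125, the smallest 6 libraries allow, and an adjusted p of 0.0547. The +Lig4 libraries gave the same exact sign-flip permutation p and adjusted p, with 6 of 6 higher, by 1.06 points (2.56% against 1.50%). In WT 2 of 6 libraries were higher (-0.0568 points). Without Igkv8-16 and Igkv8-23-1 the gaps were 5.22 (Ku70-/-), 17.8 (double knockouts) and 0.54 points (+Lig4). With prey alignments of at least 250 bp the sign turned in Ku70-/- (-8.79 points) and double knockouts (-6.10 points). In +Lig4 it did not (0.40 points). The Igkv6 segments had opposite shares of 47.7% ± 6.18 in Ku70-/- A1, 31.6% ± 0.176 in B1, 65.8% ± 5.20 in Lig4-/-Ku70-/- A1_1 and 54.5% ± 7.43 in C1, near or above the 44.0%, 37.6%, 65.8% and 53.1% of the Igkv8 members except in B1. The Igkv3 segments had 10.8% to 14.4% in these groups. No test was made between the families. Microhomology was lower in the family than in other segments in 6 of 6 WT libraries (0.320% against 1.38%) and 6 of 6 +Lig4 libraries (1.51% against 2.49%), each with an exact permutation p of 0.03125 and an adjusted p of 0.125, and the sign turned for an overlap of at least 1 bp. None of the 8 planned comparisons of the family with other segments passed after adjustment.

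**Figure D5:**
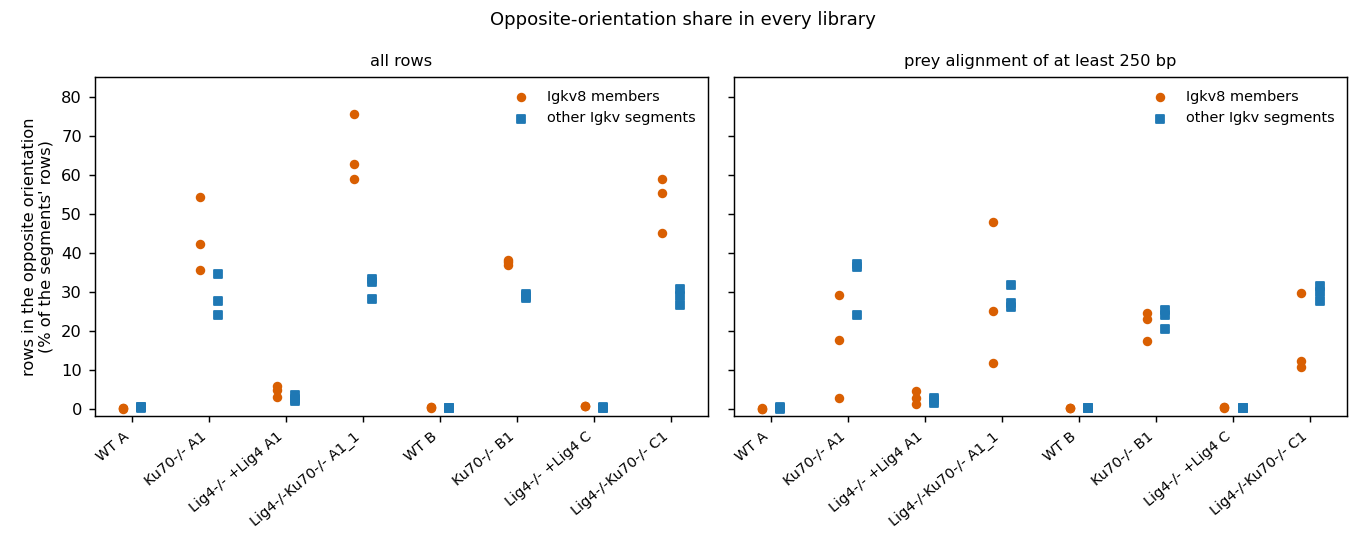
Percent of rows in the opposite orientation (y axis) in each of the 24 libraries of the 8 deeper groups (x axis), for the Igkv8 members (orange circles) and the other Igkv segments (blue squares), with all rows (left) and with prey alignments of at least 250 bp (right). With all rows every Ku70-/-, double-knockout and +Lig4 library has a higher share at the members. With long alignments the order is not kept.

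Libraries without Lig4 alone held almost no joins. In the 12 Lig4-/- libraries 40 of 490 rows lay at members (8.16%, exact 95% Clopper-Pearson interval 5.90% to 11.0%), and 4 libraries had none. In the library of 50 rows among them, a count of 0 allows a share of up to 6.0%, taken as 3 rows of the total. These rows were 25 distinct junctions, at Igkv8-21 (17 rows), Igkv8-30 (13), Igkv8-27 (6), Igkv8-23-1 (3) and Igkv8-16 (1), and 17 of them were in the opposite orientation. Adding Ku70 back to the double knockouts left 151 family rows of 1818 (8.31%, exact 95% Clopper-Pearson interval 7.08% to 9.67%) in 6 libraries, from 52 distinct junctions. The clones differed: the mean share was 21.2% ± 9.89 in A1_1 (36 of 181 rows) and 7.43% ± 3.82 in C1 (115 of 1637 rows, most of the pooled value). Against the double knockouts neither the family's share (log2 difference -0.07, exact permutation p = 0.78), microhomology (-11.6 points, p = 0.215), the distance (2.67 bp, p = 0.105) nor the opposite share (9.93 points, p = 0.275) passed the exact permutation test at this depth. The lineages went opposite ways in the family's share, by -0.54 in A and 0.40 in C with overlap in both, and in the distance, by 6.0 bp without overlap in A and -0.67 bp in C.

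Of 99 other segments, those whose mean log2 share over the 8 deeper groups ran most like the family's total were Igkv2-137 (Pearson r = 0.888), Igkv9-120 (0.856) and Igkv17-121 (0.840), a description over 8 points that share libraries and depth. Few rows lay at the edge of the window: 7 family rows were 90 to 100 bp outside a member, and 60 lay farther out but within 200 bp.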

How the data were processed

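The deposited junction lists hold 1 row per read, with the bait and prey positions, strands and alignment ends on the read. Per the labels, the authors used their LAM-HTGTS pipeline and normalised libraries to 167151 raw reads (lineage A), 377068 (C) or 600000 (B), and per the submitters' processing notes the reads were aligned with Bowtie2 to mm10; filters are not given in the sources used here. Rows were assigned to RefSeq Igkv segments within 100 bp (139 of 162 have rows, and 1137 rows lay outside all windows). For segments with at least 100 WT rows, 108 of 113 had their most frequent WT junction within 5 bp of the annotated end.

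Members and lists were chosen with earlier results of these data known, and all 10 members are named; the other segments named are the 3 most like the family by Pearson's r. The orientation tests and the settings on prey length, coding orientation, matching overlaps and leaving out Igkv8-16 with Igkv8-23-1 were chosen after seeing the data. Shares were compared as log2 of 100 × (rows + 0.5) / (library rows + 1). Library-level contrasts used two-sided exact permutation tests within lineage, or sign flips over libraries, with Benjamini-Hochberg adjustment over 9, 8 or 7 comparisons. Segments with a mean of at least 10 rows over 24 libraries were tested with limma 3.58.1 (lmFit, eBayes with trend, 8 group means) in R 4.3.3, and adjusted p-values under 0.05 were called; both tests were checked on simulated data. Sequences are read consensus bases seen at least 5 times. No pair of replicates shared a read name. Same-numbered libraries were not paired by the labels, and their deviations did not correlate above 0.1 in every pair. The alternatives tried are given at the end.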

Additional observations from a re-analysis of the deposited data

How the results depend on the processing

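Differences below are in log2 units for usage and segments, percentage points for microhomology and opposite rows, and bp for the distance from the coding end. Of 476 alternative values of the 28 library-level results and segment counts, 446 were counted as unchanged. Where a p-value was given, this means only that the sign did not turn and the threshold was not crossed. The spread was checked only for values without a p-value. Among the 446, opposite rows against +Lig4 went from 56.9 to 21.3 with long alignments. With distinct junctions, microhomology against +Ku70 went from -11.6 to -0.82. The distance against other segments then fell to 0.0 bp in WT (-0.83 with all rows) and in +Lig4 (-0.5). Counting distinct junctions once turned the sign of usage in double knockouts against +Ku70 (0.19), of microhomology against other segments in double knockouts (1.01), of opposite rows against other segments in WT (0.0616) and of usage in Ku70-/- B1 against WT B (0.0904). With microhomology from 1 bp the family exceeded other segments in WT (3.45) and +Lig4 (4.05), and from 3 bp in double knockouts (1.00). With the coding orientation alone the distance was -2.5 bp against +Ku70, and 1.08 (Ku70-/-) and 2.33 bp (double knockouts) against other segments. With prey alignments of at least 250 bp usage was -0.23 against +Lig4, 0.95 against +Ku70, -0.45 in Ku70-/- A1 and -0.15 in B1 against WT, microhomology was 18.0 against +Lig4 (exact permutation, adjusted p = 0.09), the distance against other segments in Ku70-/- was 2.08 bp, microhomology in double knockouts 0.72, opposite rows -8.79 (Ku70-/-) and -6.10 (double knockouts), and 36 and 10 segments were called, against 65 and 35. Without Igkv8-16 and Igkv8-23-1 usage was -0.37 against +Lig4, and -0.0561 (A) and -0.27 (B) in Ku70-/- against WT.

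With a replicate block, whose 6 pairs allow no p below 0.03125, the differences of double knockouts from +Lig4 in microhomology (17.5, exact permutation, adjusted p = 0.141), distance (9.58, adjusted p = 0.141) and opposite rows (56.9, adjusted p = 0.0547) no longer passed, and the block gave 62 and 33 called segments and ended the call of Igkv8-30 against Ku70-/- A1 (limma adjusted p = 0.0523). Same-numbered libraries correlated between -0.16 and 0.26, so the numbers were not taken to pair them. Leaving out 1 library moved usage against +Ku70 from -0.29 to 0.11 and microhomology against other segments in double knockouts from -1.42 to 1.38.

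Of single members against +Lig4, Igkv8-18 turned to -0.23 and Igkv8-21 to 0.14 with distinct junctions, Igkv8-30 to -0.64 with the coding orientation, and Igkv8-18 ranged from -0.23 to 0.73 with 1 library left out. Against Ku70-/- A1, Igkv8-21 turned to 0.30 with distinct junctions, Igkv8-16 to -0.13 with the coding orientation, and Igkv8-18 (-0.37), Igkv8-19 (0.0648), Igkv8-24 (-0.37) and Igkv8-28 (1.46) turned with long alignments. The causes were not tested. Values within runs were not run against +Lig4, which shares no run with the double knockouts, nor were long alignments for microhomology, distance and opposite rows against +Ku70. Depth limits the double knockouts, where a library held 23 to 179 long family rows.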
